A study of Mus musculus with 4 samples.

Results

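The cells described here held transcripts of Nr2f2 and of a mesenchymal gene, in a culture of gonadal cells made from mouse XY embryonic stem cells (ESCs) and profiled by droplet single-cell RNA-seq on day 6 (D6). They were chosen by their counts of 9 genes. A cell had to hold at least 1 unique molecular identifier (UMI, 1 counted transcript) of Nr2f2 and at least 1 of Pdgfra, Snai2 or Col1a1, with none of Upk3b, Star, Pax8, Sox9 or Amh. Of 2285 retained D6 cells, 1134 met this rule, 49.6% (exact 95% interval, 47.6% to 51.7%), and the other 1151 served for comparison. The whole series held 10987 retained cells in 4 libraries.

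The ESC line, N271S9C, carries a transgene in which Nr5a1 sequences drive the surface protein hCD271 (written Nr5a1-hCD27a in the labels) and a Sox9-2A-CGFP knock-in. It is labelled C57BL/6J, while the methods give a cross of 129X1/SvJ with C57BL/6J. The cells passed through FGF2 and activin A, then CHIR99021, BMP4 and EGF, then retinoic acid, SHH, PD0325901, EGF and BMP4, and from D4 BMP4, FGF9 and the Wnt inhibitor IWR1, and were then enriched for hCD271 with magnetic beads. That enrichment acts on the share of every cell class given below. It was partial, since the paper states that some cells with low hCD271 stayed in the sequenced fraction. A chosen cell therefore need not have been positive for hCD271. The other 3 libraries were of XY gonads of ICR mice at E10.5 (gonad with the dorsal mesenchyme around it), E11.5 and E12.5 (mesonephros removed), made with version 2 of the droplet kit where the D6 library used version 3. Origin, culture, strain, sort and kit differ together between D6 and the embryos and cannot be told apart.

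In the embryonic testis, the interstitium is the tissue between the cords of Sertoli and germ cells. Its mesenchyme expresses the nuclear receptor Nr2f2 (COUP-TFII), receives PDGF and hedgehog ligands made in the cords and by vessels, and is known as a source of Leydig cells, peritubular myoid cells and perivascular cells. Nr2f2, the receptor Pdgfra, the repressor Snai2 and the collagen chain Col1a1 mark mesenchyme in many organs as well, so the rule finds mesenchyme first and gonadal interstitium only with further genes.

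The deposited D6 library held 13965107 UMIs in 2441 cell barcodes, and cells with over 1000 and under 4000 genes and under 12% mitochondrial UMIs were retained. The chosen cells had a median of 4172 UMIs and 1945.5 genes against 5134 UMIs and 2251 genes in the other D6 cells, so they were the shallower group. D6 shared 0 barcodes with each embryonic library, and the embryonic libraries shared 10 to 19 with each other. Those libraries held 42242194 (E12.5), 32519441 (E11.5) and 40199985 (E10.5) UMIs. Every condition was 1 library, so cells were not treated as replicates and no test between conditions was possible. All intervals are exact (Clopper-Pearson for shares, Poisson or its conditional form for sums) and cover counting error only.

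Much of the boundary of the group rested on single molecules. Among its cells, 49 held exactly 1 Nr2f2 UMI and 150 held exactly 1 UMI over Pdgfra, Snai2 and Col1a1, while the median was 6 Nr2f2 UMIs. Outside it, 287 cells had no Nr2f2 UMI, 449 had Nr2f2 but none of the 3 partner genes, and 415 met the positive part but carried an excluding gene, 206 of them by exactly 1 UMI. Those 206 cells lay near the chosen cells in some genes and apart in others. They held 858 CPM (UMIs scaled to a library of 1000000) of Col1a1 against 1272 in the chosen cells and 258 CPM of Tcf21 against 234. Dcn was at 68.9 against 162 CPM, Mgp at 120 against 301, Gata4 at 101 against 62.8 and Nr5a1 at 63.7 against 25.5. Col1a1 was the partner most often seen, in 983 cells (86.7%), and 437 cells (38.5%) had it alone, whereas Snai2 was seen in 448 and Pdgfra in 432. All 3 partners were found together in 139 cells (12.3%).

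In the embryos the same rule took 31.3% of retained cells at E12.5 (866 cells), 22.3% the day before (469) and 19.5% in the youngest library (749). Their median depth was 8976, 11483 and 8925 UMIs in the same order, over 2 times that at D6 in each library. After each cell was thinned to 2000 UMIs the shares were 12.3%, 9.14% and 3.65% in the embryos, from oldest to youngest, and 45.0% at D6, with 0, 209, 6 and 16 cells too shallow to enter. The order of the libraries was the same at both depths, and equal depth widened the gap between D6 and the embryos. Cell limits differed between the libraries, however. With the D6 limits in every library and all UMIs, the E11.5 and E12.5 shares rose, which narrowed their gap to D6 (values in the closing section).

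**Figure D1:**
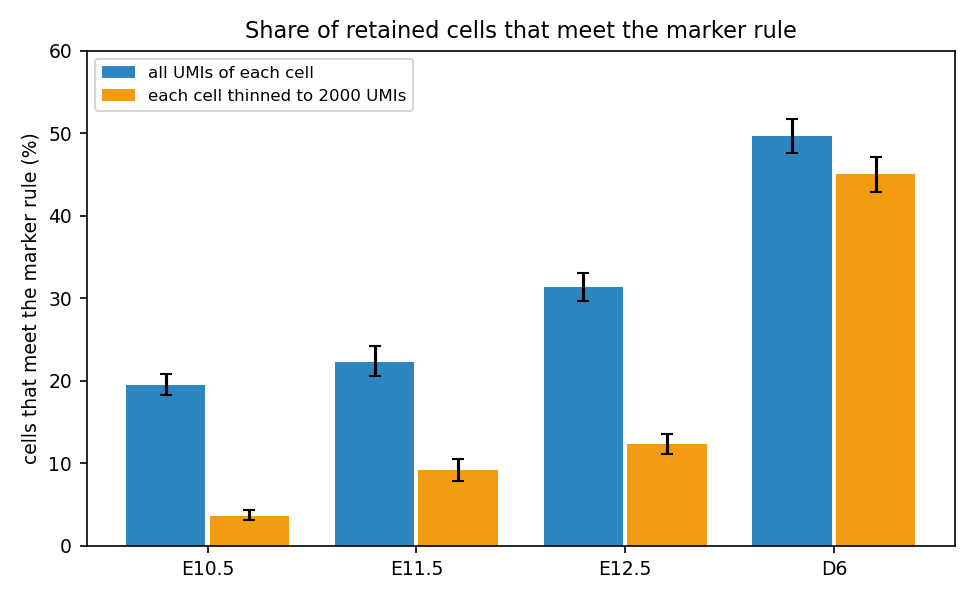
Share of retained cells that met the marker rule (y axis, %) in each library (x axis), with all UMIs (blue) and with each cell thinned to 2000 UMIs (orange). Error bars are exact 95% intervals for counting error in 1 library each. D6 stands at 49.6% and 45.0%, E12.5 at 31.3% and 12.3%.

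The genes that chose the cells are given as a description. Nr2f2 (chr7:70351944-70366735, minus strand, GRCm38) stood at 1498 CPM (1465 to 1531) in the chosen cells and 691 CPM (671 to 711) in the other D6 cells. Cells meeting the rule in the embryos held 257, 345 and 409 CPM of it, from the youngest to the oldest. Col1a1 (chr11:94936224-94953042, plus strand) was at 1272 CPM against 251 CPM in the rest of D6, and at 74.3, 118 and 97.9 CPM in the embryonic cells. Both genes helped to choose the cells in every set and each age is 1 library, so no difference between D6 and the embryos was tested. Pdgfra (chr5:75152292-75198215) was at 133 CPM against 42.0 CPM, and E12.5 at 147 CPM lay above it. Snai2 (chr16:14705852-14709385) was at 143 CPM against 58.6 CPM, between the 164 CPM of E11.5 and the 134 CPM of E12.5.

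**Figure D2:**
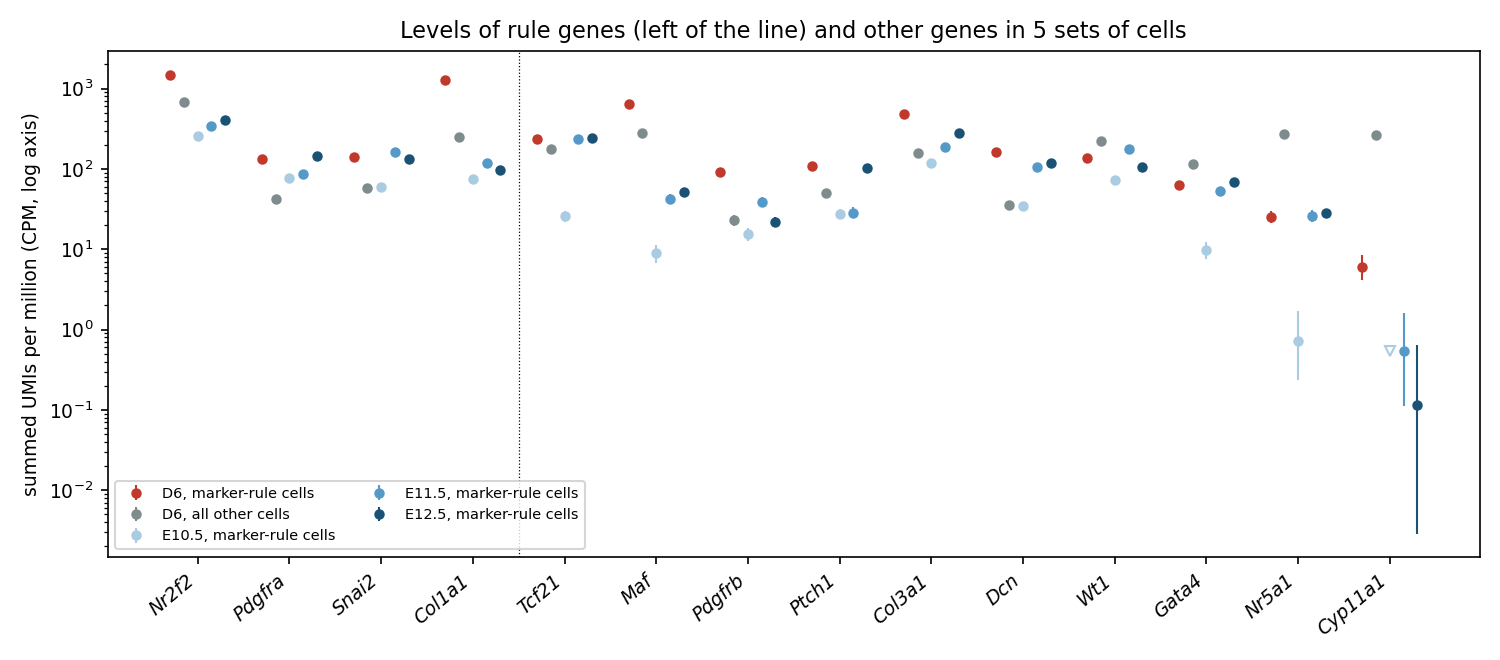
Summed level in CPM (y axis, log scale) of 4 rule genes and 10 others (x axis) in the chosen D6 cells (red), all other D6 cells (grey) and cells meeting the rule in the embryonic libraries (light to dark blue by age). Points are single libraries with exact Poisson 95% intervals, an open triangle is the upper limit where no UMI was counted, and genes left of the dotted line chose the cells. Nr2f2 and Col1a1 stand highest at D6, while Tcf21 is about level at D6, E11.5 and E12.5.

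Beyond the rule, Tcf21, a bHLH factor of gonadal and other visceral mesenchyme, stood at 234 CPM (221 to 247), close to the 235 CPM at E11.5 and 243 CPM at E12.5 and far above the 25.7 CPM at E10.5. It did not single the chosen cells out, since the other D6 cells held 179 CPM and the 415 cells with an excluding gene 284 CPM. The genes of the rule cannot support a label either, so the cells are called by the rule here.

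A check on free RNA came from 188 D6 cells with at least 5 UMIs of Star and Cyp11a1, which are steroidogenic and deeper, at a median of 6837 UMIs. Tcf21 was seen in 9.04% of them and in 48.0% of the chosen cells, and Dcn in 3.19% and 29.2%. Col1a1 was seen in 9.04% of these steroidogenic cells, and Col3a1 in 25.0% of them against 72.0% of the chosen cells. In 82 D6 cells with a UMI of Amh, Tcf21 and Col1a1 were each seen in 15.9% and Col3a1 in 28.0%. Nr2f2 was seen in 57.4% of the 188 steroidogenic cells and in 50.0% of the 82 cells with Amh. It was therefore no mark of mesenchyme by itself in this culture, since 75.1% of all other D6 cells held it.

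Of 11081 genes with at least 50 UMIs over the retained D6 cells, 404 (3.65%) were over 2-fold higher in the chosen cells than in the rest and 765 (6.90%) over 2-fold lower, with a median log2 ratio of -0.02 over all genes. These shares are the background for the lists below. Each comparison within D6 is a description, because the genes of the rule sort cells whose other genes go with them.

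Among 18 other genes of interstitial identity, 16 could be tested, of which 8 were over 2-fold higher and 0 lower, with a median log2 ratio of 0.92 against -0.02 for all genes (0.60 against D6 cells without Star). Pdgfrb, the second PDGF receptor and a gene of perivascular mesenchyme, was at 91.0 CPM against 23.0 (log2 1.98, 1.77 to 2.20). Maf, a bZIP factor, was at 645 CPM against 278 (log2 1.22). Nes, the intermediate filament nestin, was at 68.1 CPM against 27.8. Tcf21, at 234 CPM against 179 (log2 0.38), separated the groups little. Ptn, a secreted heparin-binding growth factor, was at 1819 CPM against 698. Thy1 was too sparse to be tested.

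Mesenchymal transcription factors gave a like picture, with 8 of 15 tested over 2-fold higher, 0 lower and a median of 1.01 (0.63 against D6 cells without Star). Twist2 was at 35.4 CPM (log2 ratio 2.33), Ebf1 at 55.2 CPM against 17.9, Snai1 at 55.7 CPM against 19.2 and Twist1 at 92.5 CPM against 40.8. Zeb1 and Zeb2, repressors of epithelial genes, stayed under 2-fold at log2 0.75 and 0.83. Prrx1, a homeobox gene of limb and body-wall mesenchyme, was at 72.8 CPM in the chosen cells and 74.5 CPM in the rest.

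Collagen and matrix genes made up the largest such group, and 24 of 38 tested were over 2-fold higher with 0 lower (median log2 1.10). Col1a2 (chr6:4504814-4541544, plus strand), the partner chain of Col1a1 in type I collagen, was at 801 CPM (777 to 826) against 231 CPM (220 to 243), and Col3a1 (chr1:45311538-45349706, plus strand), the type III chain, at 481 CPM against 159. Col1a2 was seen in 82.4% of the chosen cells and 37.5% of the rest. After thinning to 2000 UMIs these shares were 68.7% and 27.1%. Lum (lumican) and Has2 (a hyaluronan synthase) had the highest ratios of the list, at 54.2 CPM against 8.06 and 36.8 CPM against 5.48. The small proteoglycan Dcn was at 162 CPM against 35.4, the proteoglycan Vcan at 478 CPM against 179 and the fibril-associated Mfap4 at 192 CPM against 46.8. Type VI collagen went both ways of the 2-fold line, with Col6a3 at log2 1.96, Col6a2 at 1.56 and Col6a1 at 0.50. The list was not uniform, since Sparc, a matrix glycoprotein made by many cells, was at 843 CPM against 775 (log2 0.12), and Fbln2, Timp1 and Pcolce were below 0 at log2 -0.86, -0.44 and -0.38.

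The promoters of these collagen genes are shown because their transcripts moved together in the comparison. Each run is RefSeq sequence (GRCm38.p6) from 250 bases before to 50 after the annotated start, 5′ to 3′, with matches to CCAAT or TATAAA on either strand in capitals. The RefSeq start of Col1a2 lies inside the longer GENCODE gene whose position is given above.
Col1a2 (chr6:4505368-4505667, plus strand): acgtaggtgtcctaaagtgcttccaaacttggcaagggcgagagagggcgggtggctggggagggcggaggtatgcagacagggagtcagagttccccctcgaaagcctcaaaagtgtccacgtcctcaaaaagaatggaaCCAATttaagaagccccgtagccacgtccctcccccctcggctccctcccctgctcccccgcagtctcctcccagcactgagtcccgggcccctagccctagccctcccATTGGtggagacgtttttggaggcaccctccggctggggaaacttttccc
Col3a1 (chr1:45311288-45311587, plus strand): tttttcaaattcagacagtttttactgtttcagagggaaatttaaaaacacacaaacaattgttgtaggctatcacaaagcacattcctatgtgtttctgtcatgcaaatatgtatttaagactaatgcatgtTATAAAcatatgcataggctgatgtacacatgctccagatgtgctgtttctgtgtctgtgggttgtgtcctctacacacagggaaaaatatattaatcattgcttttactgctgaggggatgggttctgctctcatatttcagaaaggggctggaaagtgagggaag
The Col1a2 window held 2 matches to CCAAT and 0 to TATAAA, the Col3a1 window 0 and 1. Over the 8627 tested genes with a RefSeq promoter (77.9%), 39.7% of windows held CCAAT and 6.18% held TATAAA. For genes over 2-fold higher in the chosen cells (274 of 404 matched), the shares were 33.9% and 9.85%, and for genes over 2-fold lower (582 of 765 matched) 37.8% and 9.45%. Such short matches are a description of letters and not of bound sites. Col1a1, Dcn and Mgp had no entry in the promoter table.

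**Figure D3:**
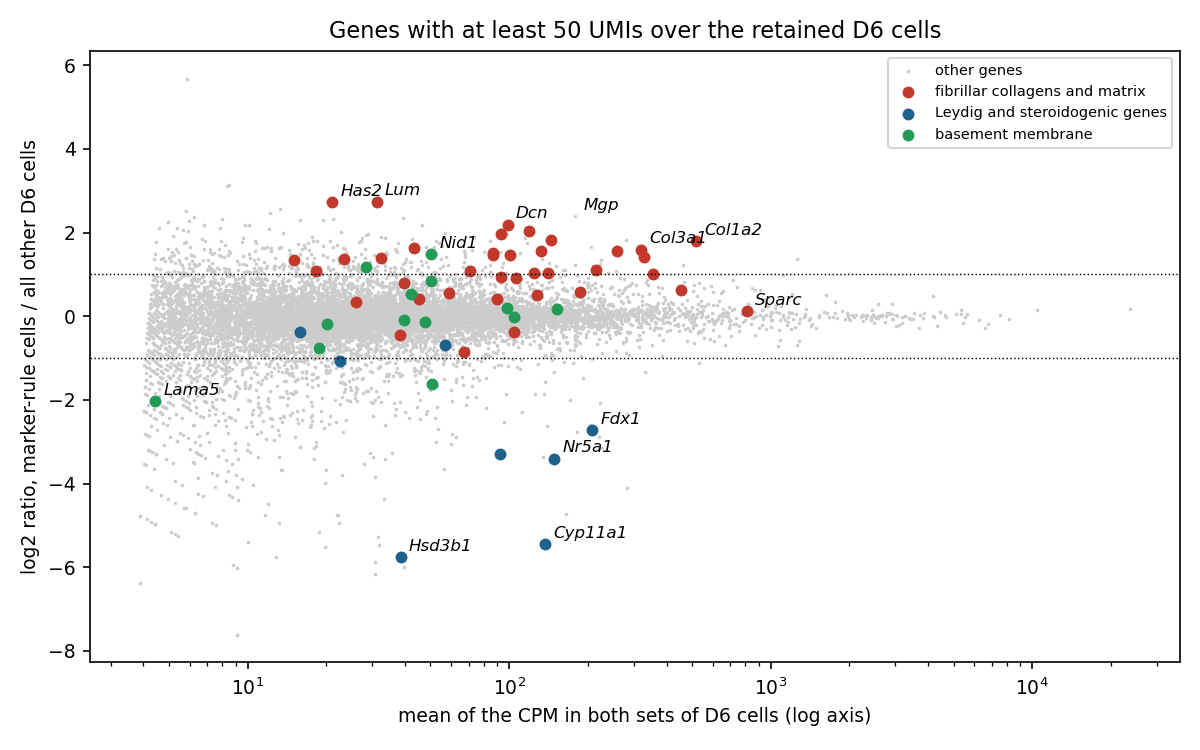
Log2 ratio of the chosen cells over all other D6 cells (y axis) against mean level in CPM (x axis, log scale) for 11081 genes, without the genes of the rule. Red, blue and green points are the matrix, steroidogenic and basement membrane lists, and dotted lines mark 2-fold. Matrix genes lie mostly above 0, steroidogenic genes below, and basement membrane genes around 0.

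Basement membrane genes, which belong to epithelia and vessels as well as to mesenchyme, did not follow the fibrillar genes. Of 13 tested, 2 were over 2-fold higher (Nid1, log2 1.48, and Nid2, 1.19), 2 lower (Col18a1, -1.62, and Lama5, -2.02), and the median was -0.01. Col4a1 was at 162 CPM against 142. Among adhesion and filament genes, 2 of 15 were over 2-fold higher and 6 lower. The higher ones were Cdh11, a cadherin of mesenchyme, at 312 CPM against 98.7, and Itga8, an integrin chain, at 156 CPM against 40.2. Lower were the keratins Krt8, Krt18 and Krt19 and also Epcam, Cdh3 and Cldn11, with Krt8 at 4.31 CPM against 19.9. These keratins are also on the list of coelomic epithelial markers, a class that the exclusion of Upk3b takes out of the group. Vim, an intermediate filament often taken as mesenchymal, was at 666 CPM against 723 (log2 -0.12).

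Of 5 PDGF genes tested, 1 was over 2-fold higher and 3 lower. The receptor Pdgfrb was higher, while the ligands Pdgfa (19.1 CPM against 86.5), Pdgfb (3.94 against 18.4) and Pdgfc (10.3 against 42.0) were lower and the ligand Pdgfd stayed under 2-fold at log2 -0.22. Of 10 hedgehog genes tested, 3 were over 2-fold higher and 1 lower (median 0.57, and 0.31 against D6 cells without Star). The receptor and target Ptch1 (108 CPM against 50.2), the effector and target Gli1 (32.1 CPM against 9.12) and the effector Gli2 (21.6 against 7.15) were higher, and the Sertoli ligand Dhh was at 0.188 CPM against 7.60. The receptor component Smo (log2 0.04) and the co-receptors Gas1 (0.51), Boc (0.89) and Cdon (-0.64) stayed under 2-fold. Shh transcripts were not seen in the chosen cells, though SHH protein had been in the medium of an earlier step. Of 8 Notch genes tested, 4 were higher (Notch1, Notch3, Hey2 and Heyl, log2 1.10 to 1.39) and 0 lower.

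Wnt genes went both ways. Of 22 tested, 6 were over 2-fold higher and 4 lower (median 0.15). Higher were the ligand Wnt5a (197 CPM against 96.7), the enhancer Rspo3 (42.2 against 12.2), the receptor Fzd1 and the secreted antagonists Sfrp1 (348 against 164), Sfrp2 (200 against 83.0) and Dkk3. Lower were the ligand Wnt6 (5.44 against 53.2), the receptor Lgr4, the enhancer Rspo1 (18.2 against 49.3) and Tcf7. Lgr4, at log2 -1.01, lost its call when the median of all genes was taken off. Axin2, a general target of canonical Wnt signals, was at 11.2 CPM against 21.7 and Lef1 at 10.1 CPM against 17.3, in medium with a Wnt inhibitor for all cells. Wnt4, which is better known from the ovary and the early gonad, was at 367 CPM against 384.

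Of 19 BMP genes tested 2 were higher and 4 lower (median 0.19), with the targets Id1 at 184 CPM against 172, Id2 at 554 against 492 and Id3 at 791 against 521, in a culture where all cells had received BMP4. Gdf6 and the modulator Bmper were the higher ones. Of 9 FGF genes 2 were higher, the receptor Fgfr1 (137 CPM against 47.0) and the inhibitor Spry1, and 1 was lower, Fgf9 (0.375 CPM against 25.2). Of 14 retinoic acid genes 2 were higher (Crabp1 and Rarg) and 3 lower, led by the synthesis enzymes Aldh1a1 (0.938 CPM against 60.2) and Aldh1a2 (19.7 against 70.3). Of 15 genes of TGF-beta and activin 0 were higher and 2 lower, the inhibin chains Inha and Inhbb, with Tgfbi just under 2-fold. Among 18 growth genes of the IGF and imprinted group, Igfbp7 and Plagl1 were higher (log2 1.21 in each) and Igfbp3 lower. Of 13 signals to germ cells, vessels and axons 4 were higher, Cxcl12 (223 CPM against 104), Slit2 (201 against 67.4), Ptn and Angpt1, and Sema3c was lower.

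Steroidogenic genes were mostly lower in the chosen cells, while most gonadal factors stayed within 2-fold. Nr5a1 (SF-1), the factor on whose transgene the cells were enriched, stood at 25.5 CPM (21.4 to 30.2) against 271 CPM (258 to 284), close to the 26.1 CPM at E11.5 and 28.1 CPM at E12.5. It was seen in 9.08% of the chosen cells and 48.7% of the rest, and in 4.45% and 30.2% after thinning. Among 12 gonadal factors 1 was over 2-fold higher, Osr1 (36.6 CPM against 8.97), a gene of intermediate mesoderm, 4 were lower and 7 within 2-fold, with a median of -0.44. The lower ones were Nr5a1, Lhx9 (43.5 CPM against 96.7), Emx2 and Nr0b1. Wt1, at 136 CPM against 221, and Gata4, at 62.8 against 116, stayed within it. Among 8 steroidogenic genes 6 were lower and 0 higher, with a median log2 ratio of -3.01. Cyp11a1, the side-chain cleavage enzyme that opens steroid synthesis, was at 6.00 CPM against 267 and Hsd3b1 at 1.31 CPM against 75.6. The exclusion of Star takes steroidogenic cells out of the group by construction. Against D6 cells without a Star UMI alone, the median of the steroidogenic genes was -1.17, and 236 genes were higher and 647 lower.

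Markers of other classes were read in the same cells as a description. The coelomic sum holds the rule gene Upk3b, the Sertoli sum Sox9 and Amh, and the steroidogenic sum Star. These genes were at 0 in the chosen cells by selection and at 89.0, 68.6, 60.2 and 226 CPM in the rest. The contrasts in these sums were therefore partly fixed by the rule and are no check. The 8 coelomic epithelial markers summed to 32.5 CPM against 233 CPM in the rest (in the chosen cells Tmem151a was the most abundant), and all 6 that could be tested were lower. The 9 Sertoli markers summed to 15.0 CPM against 401 and the 9 steroidogenic markers to 99.4 CPM against 1142, with Inha and Fdx1 the most abundant of each in the chosen cells. The 8 endothelial markers summed to 96.8 CPM against 109 (Egfl7 the most abundant), and of 7 tested 1 was over 2-fold higher, Emcn (25.7 CPM against 9.13), and 2 were lower, Pecam1 (5.44 CPM) and Cldn5. Cdh5 was at 6.19 CPM and Tie1 at 0.750. Of the coelomic, Sertoli and steroidogenic lists 2, 3 and 3 markers had no UMI in the chosen cells, genes of the rule included. The 6 markers of the supporting-like lineage summed to 1159 CPM against 804, most from Ncam1, with Pax8 at 0 by the rule.

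Markers of muscle, cartilage, nerve and blood were at different levels. Cardiac, skeletal and cartilage markers summed to 57.0, 9.38 and 48.2 CPM, and germ or pluripotency markers to 9.57 CPM. Neuronal markers summed to 177 CPM against 145 in the rest of D6 and 15.2 at E12.5, mostly Nefl in the chosen cells, with Elavl3 at 0.375 CPM and Tubb3 at 3.00. The 6 neural crest or glial markers summed to 43.5 CPM (Fabp7 the most abundant) and the 6 epithelial markers to 2.44 CPM. All 6 erythroid markers were at 0, and macrophage markers summed to 0.563 CPM. Smooth muscle and pericyte markers summed to 620 CPM against 442, and 4 of 10 were over 2-fold higher, Acta2, Des, Rgs5 and Kcnj8. The part of these sums in the ratios was not tested.

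No cell cycle gene of 23 passed 2-fold in either direction, and the median was log2 0.49 against -0.02 for all genes. Mki67 was at 261 CPM against 139 and Top2a at 677 against 391, while Cdkn1c, an imprinted inhibitor of the cycle, was at 807 against 1319. Stress and dissociation genes leaned the other way (0 of 15 higher, 2 lower, median -0.32), as did hypoxia and glycolysis genes (0 of 14 higher, 2 lower, median -0.42).

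**Figure D4:**
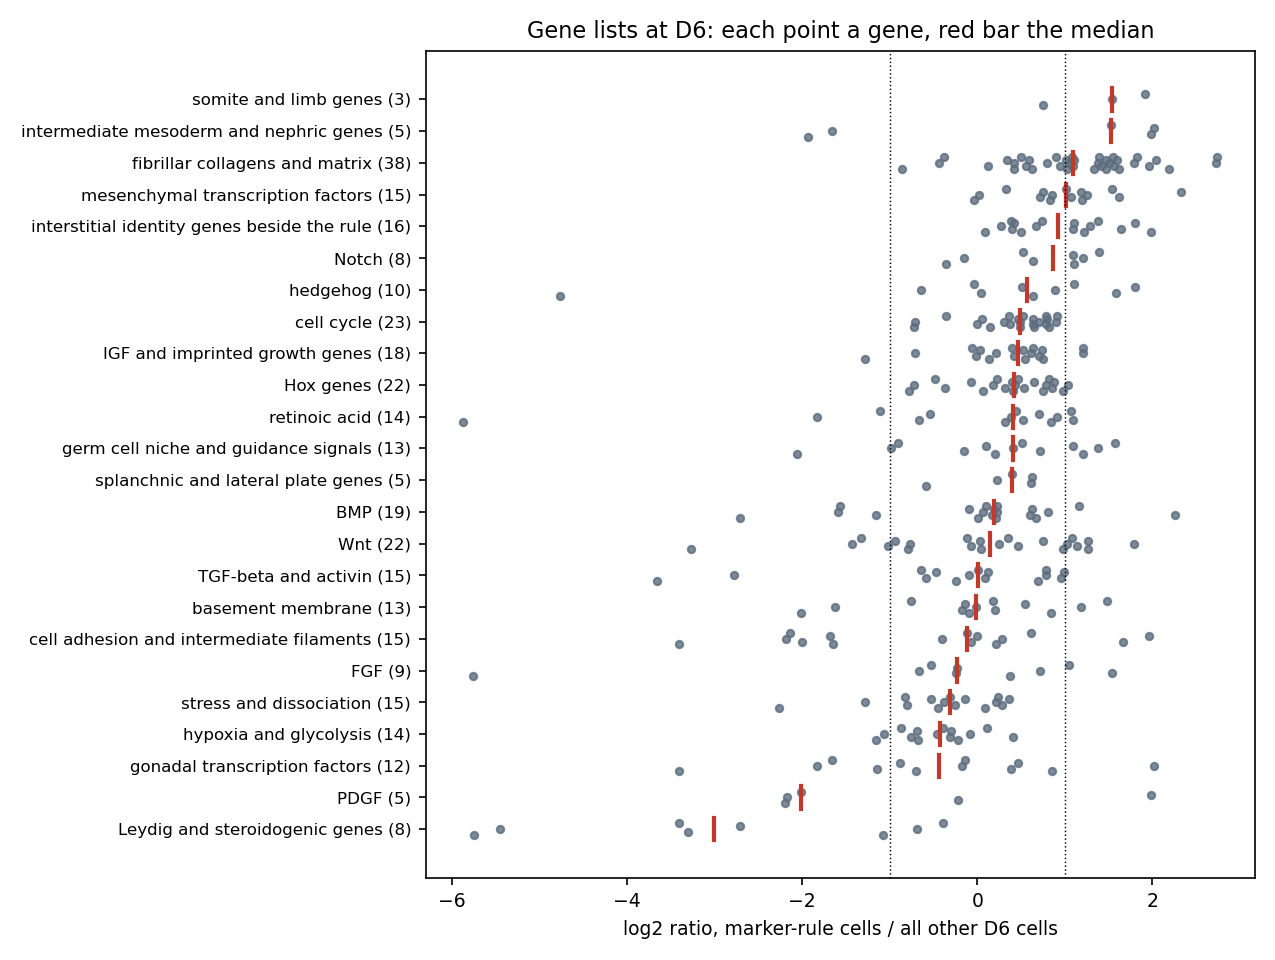
Log2 ratio of the chosen cells over all other D6 cells (x axis) for the tested genes of 24 lists (y axis, number of genes tested in brackets). Points are genes, the red bar is the list's median and dotted lines mark 2-fold. Matrix, interstitial and mesenchymal factor lists have medians of 1.10, 0.92 and 1.01, and the steroidogenic and PDGF lists lie lowest at -3.01 and -2.01.

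By size of ratio among genes of at least 100 CPM, the 12 highest were Mgp, Dcn, Mfap4, Col6a3, Itga8, Slc40a1, Selenom, Dnm3os, Emilin1, Col1a2, Olfml3 and Islr, from log2 2.39 to 1.76. Of these, Dcn, Mfap4, Col6a3, Emilin1 and Col1a2 are on the matrix list. Mgp, the matrix Gla protein that restrains calcification, was at 301 CPM (287 to 316) against 57.2 CPM. Dnm3os, a noncoding host transcript of microRNAs read from the opposite strand of Dnm3, was at 439 CPM against 123, and the iron exporter Slc40a1 at 116 CPM against 31.3. In the embryonic cells Mgp was at 29.4 CPM at E11.5 and 19.8 CPM at E12.5, and Dnm3os at 47.0 and 37.8 CPM. The 12 lowest were Cyp11a1, Adh1, Akr1cl, Inha, Nr5a1, AC167229.1, Fdxr, Kctd14, Apoc1, Chchd10, Greb1 and Bex4, from -5.45 to -2.81, of which Cyp11a1 and Fdxr (ferredoxin reductase) serve steroid synthesis.

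Within the group, clustering without the genes of the rule gave 6 subclusters, named here by their leading genes, which are a description of the clusters and not a finding about them. The largest held 425 cells (37.5%) led by Igfbp3, Gm26870, Bpifc, Dcn and Crabp1. These names rest on few cells, since Igfbp3 was seen in 5.18% of the subcluster, Crabp1 in 4.71% and Bpifc in 1 cell (0.235%), while Dcn was seen in 43.3%. A set of 169 cells was led by the histone and S-phase genes Hist1h2ap, Hist1h2ae, Hist1h1b and Hist1h1e with Ebf1, and 117 cells by the mitotic genes Cenpf, Ube2c, Cenpe, Prc1 and Aspm. A further 207 cells were led by Pcdh17, Gpr85, Ephx2, Sfrp2 and Hlx, and 67 cells by the contractile genes Tagln, Acta2 and Myl9 with Alcam and Gm10457, the last seen in 1.49% of them. The last 149 cells were led by Kctd14, Gm45889, Amhr2, Lgals7 and AC167229.1. Their median depths ran from 3574 UMIs in the Igfbp3 subcluster to 6097 in the mitotic one. The 46 top Scrublet scores, taken as doublets, included 0.794% of the chosen cells and 3.21% of the other D6 cells. A doublet that holds an excluding gene falls outside the group by the rule, and the chosen cells were shallower. The difference in these shares was therefore partly fixed and is no check.

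The Igfbp3, S-phase and mitotic subclusters had the most Dcn, Lum and Pdgfrb. In these, Dcn was at 298, 170 and 169 CPM, Lum (lumican) at 82.7, 76.1 and 61.7 CPM, and Pdgfrb at 125, 144 and 85.9 CPM. In the first 2 of them Gata4 was at 3.06 CPM (0.994 to 7.15) and 5.14 CPM (1.67 to 12.0), and Wnt4 at 585 and 468 CPM. In the mitotic one, with Dcn level with the S-phase one, Gata4 was at 81.8 CPM (62.6 to 105) and Wnt4 at 315 CPM. Tcf21 had another order, at 230, 198 and 164 CPM in these 3.

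The Pcdh17 and Tagln subclusters had less Dcn and Lum than the Igfbp3, S-phase and mitotic ones. Their Col1a1 and Nr2f2 levels, given below, cannot name a class, because both genes chose the cells. Dcn was at 56.6 and 43.4 CPM there, Lum at 23.4 and 33.8 CPM and Pdgfrb at 71.3 (54.1 to 92.2) and 31.3 CPM, the first of these overlapping the interval of the mitotic cells (66.1 to 110), while Col1a1 was at 1181 and 2013 CPM and Nr2f2 at 1872 and 1350 CPM. They held Gata4 at 97.1 and 113 CPM, Gata6 at 567 and 502 CPM, Sfrp2 at 564 and 340 CPM, Twist1 at 230 and 195 CPM and Prrx1 at 177 and 164 CPM. Tagln was at 962 CPM and Acta2 at 1186 CPM in the Tagln subcluster, and the actin-binding Cnn1 (calponin) at 53.0 CPM. These 274 cells were 24.2% of the group. Tcf21 was at 94.7 and 244 CPM in them, so in the Pcdh17 cells it was well under the level of the whole group.

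The Kctd14 subcluster met the rule with little collagen and went against the name mesenchyme. Its 149 cells had Col1a1 at 111 CPM, Col1a2 at 115 CPM and Pdgfrb at 7.96 CPM, each the lowest of the 6, and Vcan at 26.5 CPM, all below the levels of the other D6 cells outside the group. They had Tcf21 at 504 CPM, Wt1 at 279 CPM, Lhx9 at 183 CPM, Gata4 at 183 CPM and Emx2 at 137 CPM, each the highest of the 6. Amhr2, the receptor of anti-Müllerian hormone, was at 184 CPM, and Sox6 at 119 CPM against 0.655 CPM in the remaining chosen cells. Nr5a1 stood at 109 CPM (86.5 to 135) and was seen in 52 of the 149 cells, out of 103 of all 1134. Kctd14 and AC167229.1 are also among the genes lowest in the whole group against the rest of D6, and this subcluster held most of their UMIs in the group. Without these cells, 495 genes were over 2-fold higher and 905 lower against the other D6 cells, where the full group gave 404 and 765. It was recovered with 142 to 148 of its 149 cells in 1 cluster under each of 3 other clustering settings.

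**Figure D5:**
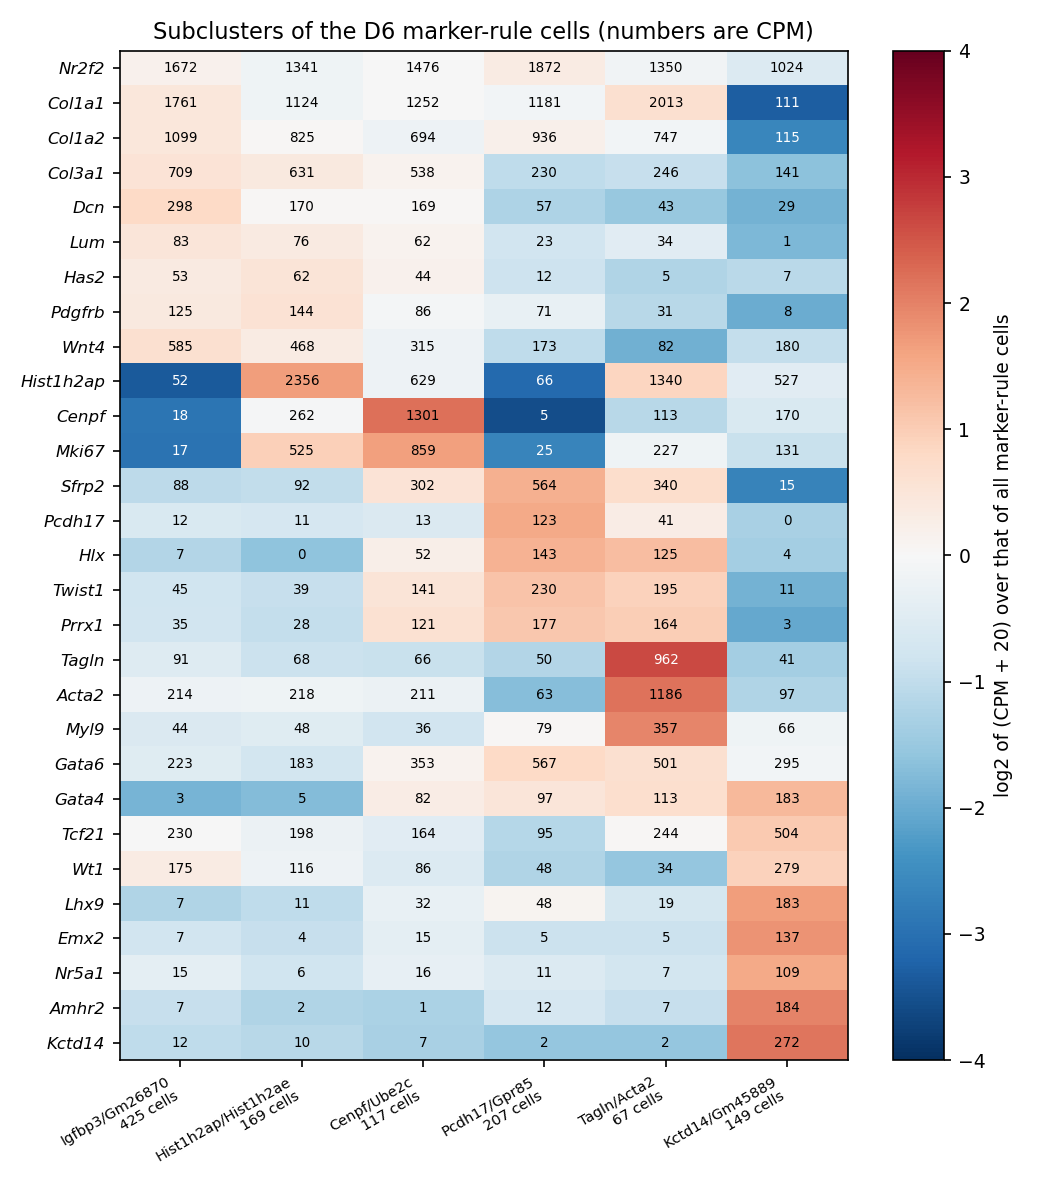
Summed level of genes (rows, CPM printed in each cell) in the 6 subclusters of the chosen D6 cells (columns, named by their leading genes, with the number of cells). Colour is log2 of CPM plus 20 over the same in all chosen cells. The 3 columns on the left share Dcn, Lum and Pdgfrb, and the next 2 share Sfrp2 and Twist1 with less Dcn. The column on the right has the lowest Col1a1 and the highest Gata4, Lhx9, Emx2 and Nr5a1.

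In single cells, 34.0% of chosen D6 cells with an Nr5a1 UMI held Lhx9 against 10.3% of those without, and 61.2% against 84.6% held Col1a2. At 2000 UMIs a cell, with 50 cells holding Nr5a1, the Lhx9 shares were 12.0% (4.53% to 24.3%) and 5.68% (4.37% to 7.24%). The Col1a2 shares were 46.0% (31.8% to 60.7%) and 69.7% (66.9% to 72.5%). The intervals of the Col3a1 shares were 26.4% to 54.8% and 50.3% to 56.4%. Cells that lost their Nr5a1 UMI in thinning were counted as without it. These intervals cover counting error in 1 library, so no difference was tested. Of the 103 chosen cells with Nr5a1, 52 lay in the Kctd14 subcluster, so this split partly repeats that subcluster.

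Against cells of the same rule at E12.5, 2861 of 10720 genes (26.7%) were over 2-fold higher at D6 and 714 (6.66%) lower, and the median of all genes was at log2 0.30. After taking this median off every gene, 2024 (18.9%) were higher and 1419 (13.2%) lower. Log2 values in the rest of this comparison are relative to that median. Of 16 genes of interstitial identity tested, 9 were higher and 2, Vcam1 and Inhba, lower, with a median of 1.18. Tcf21 at -0.35 and Ptch1 at -0.24 stayed near 0. Among genes of the rule Pdgfra was at -0.44, Snai2 at -0.21, Col1a1 at 3.40 and Nr2f2 at 1.58. Maf, at 645 CPM against 52.3 CPM, was at 3.33.

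Hox genes, which mark position along the body axis, were mostly higher at D6. Of 23 genes tested 19 were higher at D6 and 3 lower, with a median of 2.73. Genes of the Hoxb cluster were at 70.2 CPM (Hoxb3), 54.2 CPM (Hoxb5) and 45.0 CPM (Hoxb8) at D6 and at 0.228, 0.342 and 0.114 CPM at E12.5. Hoxc8 was at 250 CPM against 45.0 and Hoxc9 at 131 CPM against 21.9. The posterior Hoxd genes went the other way, with Hoxd9 at 32.4 CPM against 235 and Hoxd10 at 1.69 against 60.3. At E10.5, with dorsal mesenchyme in the sample, Hoxb8 was at 35.9 CPM and Hoxd9 at 57.0 CPM, nearer to D6 than E12.5 was. Within D6 the Hox genes hardly told the chosen cells from the rest (1 of 22 past 2-fold, median 0.42 before any shift).

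Other lists also lay above the background share of 18.9%. Mesenchymal factors had 13 of 15 higher and 0 lower, led by Prrx1 (72.8 CPM against 1.37 CPM at E12.5), and Notch genes 7 of 9 higher and 1 lower. Matrix genes were mixed, with 14 of 38 higher and 5 lower. Has2 (36.8 CPM against 1.03), Postn (96.2 against 9.46) and Vcan (478 against 90.3) were higher at D6, while Sparc (843 against 1865), Bgn (128 against 248), Pcolce (90.2 against 293), Timp1 and Serpinh1 were lower. Of the retinoic acid genes 7 of 14 were higher and 2 lower, and of the Wnt genes 8 of 22 and 2. Wnt4 was at 367 CPM against 22.9. Cell cycle genes ran lower, with 2 of 23 higher and 8 lower. Of 12 gonadal factors 3 were higher, Gata6 (318 CPM against 35.9), Zfpm2 (120 against 20.1) and Osr1, and 2 lower, Lhx9 (43.5 CPM against 252) and Emx2 (25.3 against 48.3).

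The 8 genes with the highest ratio to E12.5 were Gm42047, Nefl, Gm26669, Gm26870, Ecm1, AY036118, mt-Atp8 and Nr2f1. Gm42047, a noncoding transcript, was at 173 CPM at D6 and was not counted at E12.5, where the exact interval reached 0.420 CPM. Gm42047, Gm26669, Gm26870 and AY036118 are annotated as long noncoding RNAs, and mt-Atp8, a mitochondrial gene, was at 1214 CPM against 27.1. The other D6 cells held all 8 as well, with mt-Atp8 at 1356 CPM, AY036118 at 235, Gm42047 at 108, Gm26669 at 94.4, Gm26870 at 123, Nr2f1 at 341, Ecm1 at 234 and Nefl at 69.5 CPM. Nefl, a neurofilament chain, was at 103 CPM against 0.228, Ecm1, a matrix protein, at 473 against 5.36, and Nr2f1, the closest relative of Nr2f2, at 449 against 12.2. The 8 lowest were Gm10320, Gm10260, Nnat, Pf4, Ren1, Kcne1l, Tpm3-rs7 and Gm11361. Pf4, a platelet chemokine, rested on few cells, since its 900 UMIs at E12.5 came from 0.808% of the cells of the rule. Nnat, an imprinted gene, was at 0.750 CPM against 287, and Ren1 (renin) at 5.25 against 135, with 5.62 CPM at E11.5. Tpm3-rs7 is a related sequence of Tpm3, and predicted genes such as Gm10260 and Gm10320 may share reads with near-identical copies, so their counts are uncertain.

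The E10.5 library gave a check on other mesenchymes, since its sample included tissue around the gonad. In cells meeting the rule there, Foxf1 was at 63.8 CPM, Hand1 at 68.5, Barx1 at 81.3, Pitx1 at 54.0 and Nkx2-3 at 34.3 CPM, all genes of visceral or lateral plate mesoderm. At D6 these stood at 1.69, 0, 0.188, 0 and 0 CPM. Other genes of that list were present at D6, and of 5 that could be tested against E12.5 4 were higher, Tbx18 (15.2 CPM against 0.684), Tbx3 (29.5 against 2.62), Bmp4 (55.9 against 16.4) and Hand2 (17.8 against 6.72), and 0 lower. The list summed to 200.3 CPM at D6 and 99.1 CPM at E12.5. Of the somite and limb genes, Alx1 was at 8.07 CPM (74.5 at E10.5) and Meox1 at 14.6 CPM (73.9). Among genes of intermediate mesoderm, Osr1 was at 36.6 CPM and the stromal factor Foxd1 at 21.9 CPM, against 8.09 and 0 CPM at E12.5, and Six2 was not seen. Of 6 tested against E12.5, 3 were higher (Osr1, Foxd1 and Gata3) and 3 lower, Osr2 (5.63 CPM against 43.0), Emx2 and Eya1. Against the rest of D6, 3 of the 5 intermediate mesoderm genes that could be tested were over 2-fold higher (Osr1, Foxd1 and Gata3) and 2 lower. Of 17 visceral and lateral plate genes 5 held enough UMIs to be tested, and these stayed within 2-fold. Of 20 somite and limb genes 3 did, of which Alx1 (log2 1.54) and Alx4 (1.92) were higher and 0 lower. Erythroid transcripts reached 2130 CPM in the E11.5 cells of the rule, most from Hbb-y, and 0 at D6.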

How the data were processed

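Whole-number UMI counts per gene and cell were deposited by the authors as Cell Ranger matrices (version 3.0.2 per the submitters' processing notes, 6.0.0 per the file headers; genome mm10). Cells were retained by the study's limits for each library. Counts were summed over cells and given as CPM. Log2 ratios had 0.5 UMI added to each sum, genes needed 50 UMIs over the sets compared, and genes of the rule were left out of counts. Clusters came from scanpy 1.11.5 (1500 variable genes without rule and mitochondrial genes, 20 components, 15 neighbours, Leiden resolution 0.5), with leading genes by the ratio of CPM plus 20. Scrublet scores were ranked and the top 46 cells taken as doublets, which stayed in the results. TMM factors used edgeR 4.0.16 as an alternative scaling only. Promoters and positions were joined by symbol and by gene identifier (99.6% of 31053 matched GENCODE vM21). The ratio step was tested on simulated data.

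Members, lists and comparisons were chosen with earlier results of these data known. Named genes were those of the rule and lists, the 12 per direction with the largest ratio within D6 and 8 per direction against E12.5 (at least 100 CPM in the higher set), and the 5 leading genes of each subcluster. Aldoa and Hoxd4 of the lists were not found by symbol. Some genes of the lists are not reported here and were left out of the lists' counts and medians. The labels give papain and the methods trypsin for dissociation.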

Additional observations from a re-analysis of the deposited data

Results flagged for a closer look

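The D6 barcodes outside the cell limits were used in no comparison. Of these 156 barcodes, 19 (12.2%, exact 95% interval 7.49% to 18.4%) met the gene part of the rule, 8 of them with too many genes, 11 with too few and 2 with too high a mitochondrial share, a barcode being able to fail more than 1 limit. They were singled out because barcodes left out of the report also met the genes of the rule, and no other gene was read in them.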

How the results depend on the processing

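The share of D6 cells that met the rule was 45.0% at 2000 UMIs a cell, 47.5% with at least 2 Nr2f2 UMIs, 67.8% without the excluding genes, 47.2% without cell limits and 52.7% under 5% mitochondrial UMIs, where the reported value was 49.6%. At 2000 UMIs the embryonic shares were 12.3%, 9.14% and 3.65% from oldest to youngest, and with the D6 cell limits 26.1% at E11.5 and 36.5% at E12.5. With at least 200 UMIs a gene, 208 genes were higher and 297 lower within D6 and 1604 higher at D6 than at E12.5. With no filter on genes these counts were 2037 and 3709 within D6 and 6571 higher and 1716 lower against E12.5, fewer or more genes being tested. TMM scaling gave 1351 genes lower at D6 than at E12.5, and moved the higher share of the calls from 80.0% to 60.6%. Against D6 cells without Star, an alternative chosen after seeing the data (as was leaving out the Kctd14 subcluster), 236 genes were higher, and the cause was not tested. The subclusters numbered 4 at resolution 0.3, 8 at 0.8 and 6 with 10 components. None of the 24 genes of largest ratio within D6 changed direction or fell under 2-fold in 168 recomputed ratios. Lgr4, at log2 -1.01 just past the line, lost its call when the median of all genes was taken off, and Tgfbi became over 2-fold higher. Of 168 recomputed list medians 13 moved, 6 of them at 2000 UMIs a cell (Notch from 0.86 to 0.53, PDGF from -2.01 to -1.55, gonadal factors from -0.44 to -0.69, steroidogenic genes to -2.72, intermediate mesoderm from 1.53 to 0.72, somite and limb from 1.54 to 0.81) and 6 against D6 cells without Star (interstitial identity from 0.92 to 0.60, mesenchymal factors from 1.01 to 0.63, hedgehog from 0.57 to 0.31, retinoic acid from 0.41 to 0.05, steroidogenic genes from -3.01 to -1.17, intermediate mesoderm to 0.82). With at least 2 Nr2f2 UMIs intermediate mesoderm was at 1.24. Against E12.5, 63 recomputed ratios kept their side of 2-fold, and that of Ren1 fell to log2 -0.10 against E11.5. No paired analysis was possible because each condition has 1 library. Depth limits what can be read of genes under about 3 UMIs in a set, and with 1 library a condition no value carries the spread between cultures or litters.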
